A study of Homo sapiens with 2 samples.

Results

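The regions described here are the tallest promoter peaks of accessible chromatin in untreated G401 cells. They are the peaks of the DMSO library on chromosomes 1 to 22 that reached at least 3 tags per 1000000 tags of the library (RPM) at the summit and had any base at most 3 kb from the TSS, the transcription start site, of a protein-coding gene. 1247 peaks met this rule, out of 1584 peaks of that height anywhere on these chromosomes, 25195 DMSO promoter peaks of any height and 114506 DMSO peaks in all. They lay within 3 kb of 1578 coding genes, which is 8.21% of the 19222 coding symbols on these chromosomes. G401 is an established cell line derived from a rhabdoid tumor of the kidney, a tumor type that lacks the SMARCB1 subunit of the SWI/SNF chromatin remodeling complex. The assay was ATAC-seq, which uses Tn5 transposase to put adapters into open DNA. Cells of the control culture were given the solvent DMSO, and cells of the treated culture were given 3 µM MAK683, an inhibitor that binds EED in Polycomb repressive complex PRC2, for 3 days, and both carry the same tumor genotype. There was 1 library per group from 1 cell line, so no difference below was checked against replicates and no p-value was computed.

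Most active promoters of mammalian genes lie in CpG islands and keep a stretch of DNA free of nucleosomes just upstream of the TSS, where transcription factors and RNA polymerase II assemble. Genes that every cell needs, for protein synthesis, protein folding, RNA splicing and cell division, typically have such promoters, and Tn5 inserts readily there. PRC2 methylates histone H3 at lysine 27 at silent promoters, mainly of developmental genes, and its target promoters are a different class from the constantly active ones.

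The sequences under 8 of the summits show what these promoters are made of, and were picked to show the common motifs, their combinations and a window with no motif. Each is the 150 bp around the summit in GRCh37, given on the plus strand, 5′ to 3′, with matches to the searched motifs in capitals. Only windows that touch no annotated exon were considered. The motifs were read on both strands by exact letters: CCAAT for NF-Y, GGGCGG for SP/KLF factors, CCGGAAG for ETS factors, GCATGCG for NRF1, GATGGCG for YY1, TGACGTC for CRE-binding factors, TGACTCA for AP-1, CACGTG for E-box factors, TATAAA for the TATA box and ACTACAA for ZNF143. On the minus strand NF-Y letters appear as ATTGG, SP/KLF letters as CCGCCC and ETS letters as CTTCCGG. In DNAJC3 the NF-Y and YY1 letters share bases. The E-box letters read alike on both strands.
CAND1, chr12:67662917-67663066: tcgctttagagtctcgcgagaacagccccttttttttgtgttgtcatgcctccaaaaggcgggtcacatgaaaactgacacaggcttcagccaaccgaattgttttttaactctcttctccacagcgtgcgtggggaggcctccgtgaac
H2BC12, chr6:27114657-27114806: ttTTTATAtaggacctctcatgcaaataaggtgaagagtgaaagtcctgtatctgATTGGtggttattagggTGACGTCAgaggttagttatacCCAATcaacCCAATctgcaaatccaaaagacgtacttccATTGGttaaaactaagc
H2AC25, chr1:228645586-228645735: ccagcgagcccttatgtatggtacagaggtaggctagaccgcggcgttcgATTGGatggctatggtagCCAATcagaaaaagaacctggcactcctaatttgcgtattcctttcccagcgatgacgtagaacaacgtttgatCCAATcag
DNAJC3, chr13:96329239-96329388: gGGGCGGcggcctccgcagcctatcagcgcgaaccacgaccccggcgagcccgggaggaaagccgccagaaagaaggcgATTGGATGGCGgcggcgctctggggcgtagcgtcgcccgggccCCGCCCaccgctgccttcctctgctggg
SF3B5, chr6:144416797-144416946: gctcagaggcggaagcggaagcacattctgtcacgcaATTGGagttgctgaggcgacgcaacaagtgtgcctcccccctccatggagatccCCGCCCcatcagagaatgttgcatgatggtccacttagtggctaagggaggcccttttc
MRPL18, chr6:160211339-160211488: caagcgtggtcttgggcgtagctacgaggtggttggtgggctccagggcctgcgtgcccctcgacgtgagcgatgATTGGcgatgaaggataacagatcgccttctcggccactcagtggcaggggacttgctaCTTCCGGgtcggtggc
COX20, chr1:244998519-244998668: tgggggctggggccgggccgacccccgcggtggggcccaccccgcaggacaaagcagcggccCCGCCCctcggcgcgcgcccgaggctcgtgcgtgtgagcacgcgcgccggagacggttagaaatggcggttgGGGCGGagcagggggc
TOR3A, chr1:179051041-179051190: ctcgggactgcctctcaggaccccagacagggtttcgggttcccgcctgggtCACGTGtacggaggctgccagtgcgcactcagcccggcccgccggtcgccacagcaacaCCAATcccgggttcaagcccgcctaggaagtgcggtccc
The CAND1 window, from one of the 12 tallest peaks, holds none of the 10 motifs. The windows of H2BC12 and H2AC25, which encode core histones, hold several CCAAT letters each, and the H2BC12 window also holds CRE and TATA letters. DNAJC3, a chaperone of the endoplasmic reticulum, SF3B5, a subunit of the spliceosome, and MRPL18, a protein of the mitochondrial ribosome, combine CCAAT with SP/KLF, YY1 or ETS letters. COX20, an assembly factor of cytochrome c oxidase, has SP/KLF letters only, and TOR3A, a torsin-family ATPase, has CCAAT and the E-box.

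The height in DMSO chose these peaks and is given as a description. The 1247 peaks held between 50 and 141 tags at the summit in DMSO, with a median of 54 and quartiles of 52 and 58. In RPM this was 3.01 to 8.49, with a median of 3.25. Most sat close to the limit: 997 held 50 to 59 tags, 211 held 60 to 69 and 39 held 70 or more. At the limit itself, 154 promoter peaks had 50 tags and were taken, and 161 had 49 tags and were not. Their median heights in MAK683 were the same 37 tags. Just inside were DNAJC16, a chaperone-family gene, with 50 tags in DMSO and 33 in MAK683, TRAPPC3, a vesicle-tethering subunit, with 50 and 30, and CAP1, an actin regulator, with 50 and 37. Just outside were FAF1 with 49 and 41, NDC1, a nuclear pore membrane protein, with 49 and 35, and DEPDC1 with 49 and 45.

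The libraries had similar depth, with 16598348 tags after filtering in DMSO and 18265284 in MAK683, so 1 tag is worth 0.0602 and 0.0547 RPM. Their peak numbers differed more, with 114506 in DMSO and 161684 in MAK683. How that difference relates to the peak heights was not tested. As a check of the line, neither library had a peak in SMARCB1 (chr22:24129118-24180196) or the 3 kb around it. The nearest DMSO peaks were 158934 bp to the left and 458647 bp to the right.

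Next, each peak was compared with the tallest overlapping MAK683 peak. All 1247 had one. Heights in MAK683 ran from 21 to 132 tags, with a median of 40 and quartiles of 36 and 46, or 1.15 to 7.23 RPM with a median of 2.19. The ranges of the libraries overlapped, but 1242 of the 1247 peaks were lower in MAK683 (99.6%, 95% Wilson interval 99.1 to 99.8) and 5 were higher. The background was high too: of the 18666 DMSO promoter peaks of any height with a MAK683 peak, 76.1% were lower in MAK683. The median log2 ratio of MAK683 over DMSO height was -0.60 (95% order-statistic interval -0.61 to -0.58), a ratio of 0.661, against -0.38 for all promoter peaks and -0.29 for all DMSO peaks. The Wilson and order-statistic intervals, here and below, take peaks as units, although all peaks come from the same libraries. They do not measure variation between cultures and are not the precision of a treatment difference. Intervals of single peaks cover counting error only, and reads that carry no molecular identifier need not be independent molecules. Because the peaks were chosen on DMSO height, these ratios are a description.

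**Figure D1:**
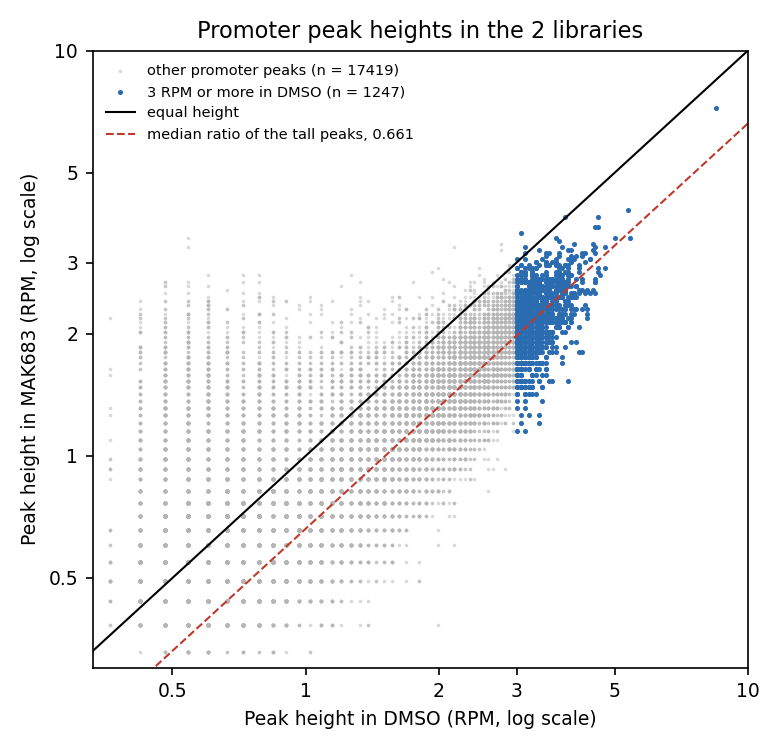
Peak height in MAK683 (vertical, RPM, log scale) against height in DMSO (horizontal, RPM, log scale) for DMSO promoter peaks with an overlapping MAK683 peak. Blue points are the 1247 peaks of at least 3 RPM in DMSO and grey points the other 17419. Nearly all blue points lie under the solid line of equal height, around the dashed line at a ratio of 0.661.

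Large differences were few. At least 2-fold lower were 72 peaks (5.77%), near the 5.24% among all promoter peaks with a partner, and 0 were at least 2-fold higher, against 4.76%. Of the 888 promoter peaks at least 2-fold higher, 877 were under 1 RPM in DMSO, and none was between 2.5 and 3 RPM. The 95% Poisson interval of the log2 ratio lay below 0 for 657 peaks and above 0 for 0 peaks, while it lay below 0 for 13.9% of all promoter peaks. The DMSO height that chose the peaks is the denominator of the ratio and narrows its interval. These contrasts with all promoter peaks are therefore in part built in. The SD of the log2 ratios was 0.239, a spread that the limit on DMSO height itself narrows. The counting error had a larger SD, 0.301, so these ratios do not show that single peaks differed from each other. For 18 peaks (1.44%) the interval left out the median of all 1247, 8 above it and 10 below. In MAK683, 50 peaks (4.01%) still reached 3 RPM.

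Next, promoter peaks were set out by DMSO height. That height is also the denominator of the ratio, so a lower ratio in taller classes is in part built in, and only peaks with a called MAK683 peak enter. A low DMSO peak can also be matched to a tall MAK683 peak that spans it. The medians are therefore a description. Promoter peaks under 1 RPM had a median log2 ratio of 0.01, with 49.7% of those with a partner lower in MAK683, and 52.7% had a partner. From 1 to 1.5 RPM the median was -0.40, from 1.5 to 2 RPM -0.50, from 2 to 2.5 RPM -0.54 and from 2.5 to 3 RPM -0.55. The 95 peaks with 65 tags or more had a median of -0.66 and all were lower in MAK683. Tall peaks away from coding TSSs, 337 in number, had a median of -0.56, with 97.6% lower. Choosing by the other library gave a smaller difference of the same sign. The 1247 promoter peaks tallest in MAK683, which held at least 39 tags or 2.14 RPM, had a median log2 ratio of -0.35, and 88.9% were lower in MAK683 than in DMSO (87.0 to 90.5). Of these, 713 (57.2%) were partners of the tall DMSO peaks. Only 53 MAK683 promoter peaks reached 3 RPM, and 50 of them overlapped a tall DMSO promoter peak.

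**Figure D2:**
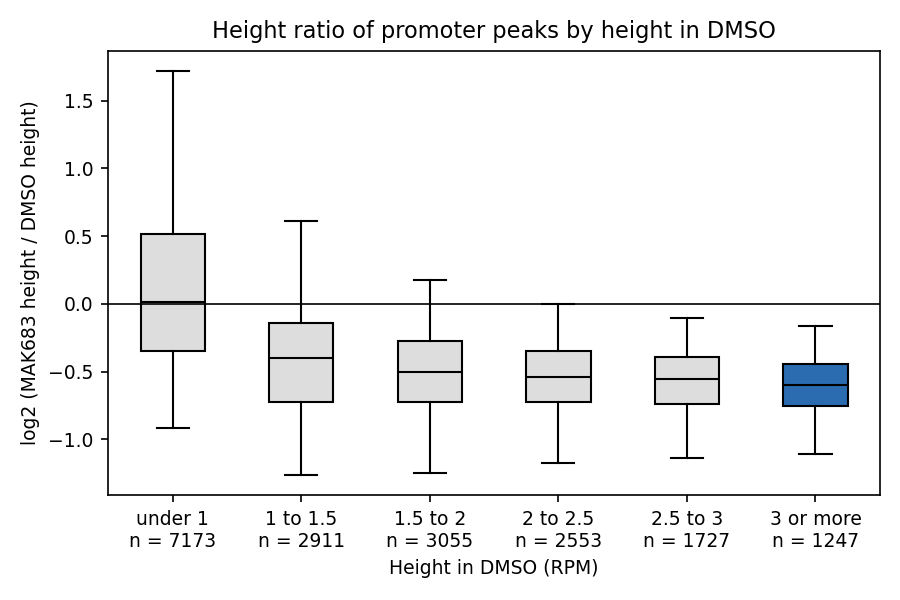
The log2 ratio of MAK683 over DMSO height (vertical) of promoter peaks with a partner, in 6 classes of DMSO height (horizontal, RPM, with the number of peaks). Boxes show quartiles and the median, whiskers the central 95% of peaks. The median goes from 0.01 under 1 RPM to -0.60 at 3 RPM or more, and the spread narrows with height.

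The 12 tallest peaks in DMSO were a mixed group. The tallest lay near MTRNR2L1, a nuclear gene resembling mitochondrial ribosomal RNA, at chr17:22020523-22021057, and held 141 tags in DMSO and 132 in MAK683 (log2 -0.23, interval -0.58 to 0.11). Its summit was at -1566 bp from the TSS, upstream, and at 535 bp it was also the narrowest of the 1247 peaks. The bases around its summit were 88.3% identical to the mitochondrial genome over 239 bp, so its tags are uncertain. NBPF1, of the neuroblastoma breakpoint family, followed with 90 and 63 tags (-0.65, -1.12 to -0.19). FAM72D and FAM72A, copies of a duplicated gene family, held 89 and 74 tags and 76 and 67 tags, and reads of these copies cannot be told apart with certainty.

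Among tall peaks with no near copy, C10orf143 held 83 tags in DMSO and 63 in MAK683, and WDR89, which encodes a WD-repeat protein, held 79 and 60. LCA5, which encodes the ciliary protein lebercilin, held 79 and 53 tags (log2 -0.71, -1.22 to -0.21). TMEM18, a transmembrane protein of the nuclear envelope, held 77 and 51. CAND1, the exchange factor of cullin ubiquitin ligases whose window is printed above, held 76 and 53 (-0.66, -1.16 to -0.15). TRMT10A, a tRNA methyltransferase, held 76 and 52. SWT1, an RNA endonuclease that shares its peak with the divergent gene TRMT1L, held 75 and 46 and had the lowest ratio of the 12 (-0.84, -1.37 to -0.31). ENY2, a subunit of the SAGA coactivator, shares its peak with NUDCD1 and kept most of its height, with 76 and 71 tags (-0.24, -0.70 to 0.23). All 12 were lower in MAK683, and the interval reached 0 for MTRNR2L1, FAM72D, FAM72A and ENY2. In MAK683 the tallest of the 1247 were MTRNR2L1, FAM72D, ENY2, a 3-gene promoter with 71 tags (ENSG00000283563 with AZI2 and ZCWPW2) and FAM72A.

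The peaks with the lowest ratios belonged to genes of varied function, among them RNA binding and nuclear transport. C15orf40 held 56 tags in DMSO and 22 in MAK683 (log2 -1.49, -2.20 to -0.77). NUP133, a scaffold of the nuclear pore, held 52 and 21 (-1.45, -2.18 to -0.72). HNRNPA3, an RNA-binding protein, held 56 and 23 (-1.42, -2.12 to -0.72). CAPN7, a calpain protease, held 65 and 28, and RPS27L, a relative of a ribosomal protein, held 51 and 22. These 5 were at least 2-fold lower in MAK683 and their intervals lay below 0. They come from the extreme of 1247 ratios.

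At the other end, FOCAD, which encodes focadhesin, held 51 tags in DMSO and 65 in MAK683 (log2 0.21, -0.32 to 0.74), the highest ratio. CTDP1, a phosphatase of the RNA polymerase II tail, held 52 and 60, TOR3A held 50 and 56, and PPP2R5A, a regulatory subunit of protein phosphatase 2A, held 52 and 58. The promoter shared by ENSG00000283563, AZI2 and ZCWPW2 held 64 and 71 tags (0.01). ING2, a reader of histone H3 lysine 4 methylation, held 52 and 56 tags, a log2 ratio of -0.03 after scaling for depth. All 6 intervals included 0, so none was distinguishable from equal height.

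**Figure D3:**
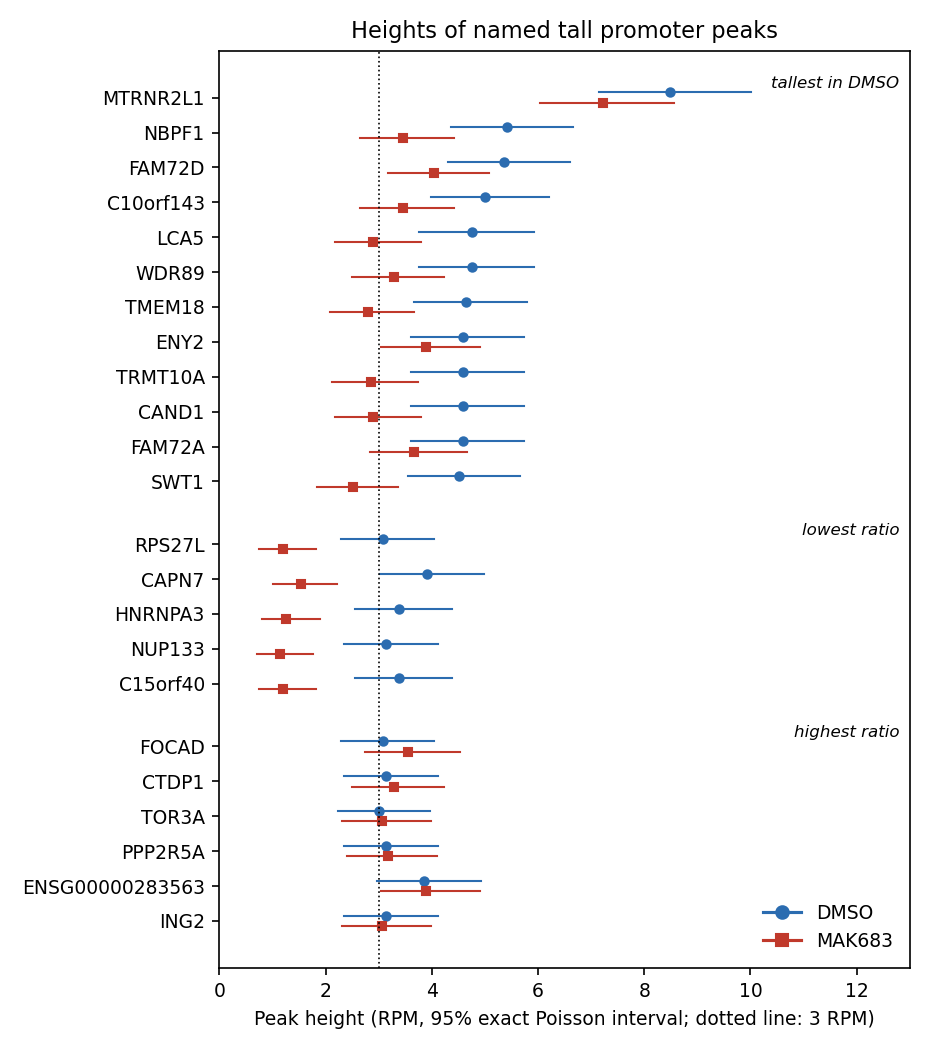
Heights (horizontal, RPM) of the 12 tallest peaks in DMSO, 5 with the lowest ratios and the 6 with the highest, each named by its nearest coding gene. Blue circles are DMSO and red squares MAK683, lines are 95% exact Poisson intervals of the tags, and the dotted line is the limit of 3 RPM. MAK683 lies left of DMSO for all 12 tallest and the 5 lowest-ratio peaks shown, and the symbols nearly coincide for most of the highest-ratio peaks.

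The position of the summit was not part of the rule beyond the 3 kb of the peak, and it was close to the TSS. In 729 of 1247 peaks (58.5%, 55.7 to 61.2) the summit lay within 150 bp of a coding TSS, against 24.2% of other DMSO promoter peaks. The share was as high in the next lower classes, with 61.5% at 2.5 to 3 RPM and 59.9% at 2 to 2.5 RPM. Within 500 bp were 1094, while 77 were more than 1 kb away and 20 of these more than 3 kb. The summit was upstream in 995 peaks, downstream in 250 and at the TSS base in 2, with a median of 65 bp upstream (signed value -65). By annotation, 628 summits lay outside coding transcripts, 300 in untranslated regions, 283 in introns and 36 in coding exons. The summits of both libraries were a median of 30 bp apart, and 859 (68.9%) were at most 100 bp apart. In 59 peaks the summits were more than 500 bp apart, so their height ratios compare different positions. Divergent pairs of coding genes, with TSSs up to 1 kb apart, lay at 201 peaks (16.1%), against 2.83% of other promoter peaks and 10.5% of those between 2.5 and 3 RPM. Their median log2 ratio was -0.58, against -0.60 for the rest.

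**Figure D4:**
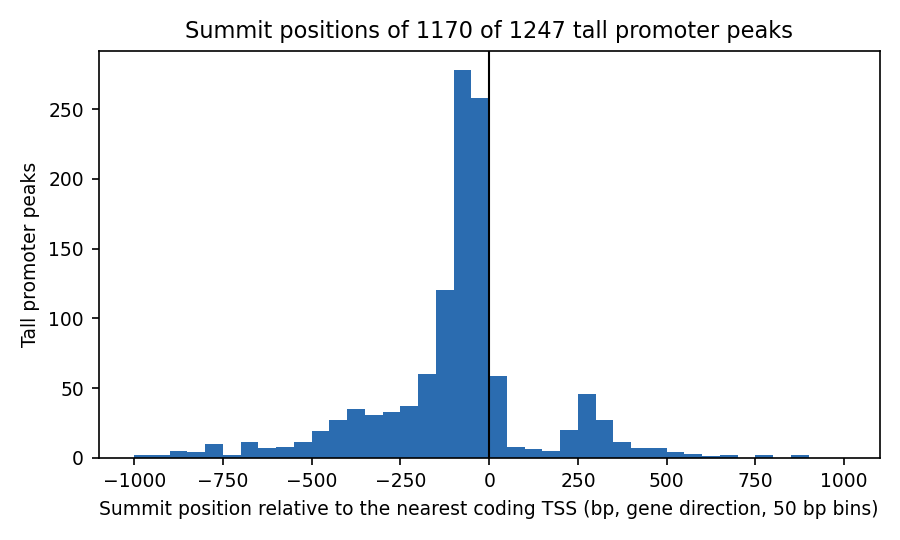
Number of tall promoter peaks (vertical) by the position of the DMSO summit relative to the nearest coding TSS in the direction of the gene (horizontal, bp, 50 bp bins). Shown are 1170 of the 1247 peaks. Most summits fall just upstream of the TSS, with a smaller group downstream.

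Tall promoter peaks were long. Their median length was 2236 bp in DMSO and 1856 bp in MAK683, and 1050 of the 1247 were longer in DMSO. The MAK683 length is that of the tallest overlapping peak only, so a DMSO peak split in MAK683 counts as shorter. The choice on DMSO height, with which length grew, also favours longer DMSO peaks, so this difference is a description. All promoter peaks had a median of 848 bp in DMSO, those of 2.5 to 3 RPM 2077 bp and those of 2 to 2.5 RPM 1907 bp, so length grew with height without a step at the limit. The widest was at AMOTL2, which encodes an angiomotin-family scaffold protein, with 23050 bp. CRIP1, a LIM-domain protein, followed with 14971 bp and PLK3, a polo-like kinase, with 14924 bp. The MAK683 peaks matched to AMOTL2 and PLK3 had 6600 and 989 bp. The AMOTL2 summit was at base 134093480 of its chromosome in DMSO and 134076856 in MAK683. For CRIP1 the summits were at 105947359 and 105957534. The height ratios of AMOTL2 and CRIP1 therefore compare different sites. After MTRNR2L1 the narrowest were THG1L, which modifies histidine tRNA, with 964 bp, and SPDL1, a spindle protein, with 984 bp. SPDL1 held 52 tags in DMSO and 24 in MAK683. The 68 peaks over 5000 bp, a group chosen on DMSO length, had a median length of 7248 bp in DMSO and 4320 bp in MAK683. Their median log2 height ratio was -0.60, like that of all 1247.

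The base composition and motifs were read in the 300 bp around each summit. The median GC content was 65% (quartiles 60.7 and 70), against 59% for other promoter peaks, and the ratio of observed to expected CpG was 0.844 against 0.465, and 0.845 at 2.5 to 3 RPM. Other promoter peaks include many summits away from the TSS. Among summits within 150 bp of a TSS the CpG ratios were close, at 0.871 in tall peaks and 0.870 in the others. There the order of GC turned, with 65.3% in tall peaks and 68.3% in the others, and GC fell with height from 70% at 1 to 1.5 RPM over 69%, 68% and 67% to 65.3%. Within the 1247 peaks the height ratio hardly varied with GC. Pearson's r between GC and the log2 ratio was 0.03, a description over peaks of the same libraries. Over all promoter peaks of at least 1.5 RPM with a partner, the median log2 ratio was higher at higher GC. It was -0.65 at 40 to 50% GC and -0.49 at 75 to 100%, and the reason was not tested.

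The NF-Y letters CCAAT, repeated in the histone windows above, were in 45.5% of tall peaks, 29.3% of other promoter peaks and 32.5% of the windows around all coding TSSs. Near the TSS this share climbed with height, from 26.9% at 1 to 1.5 RPM over 33.8%, 37.4% and 39.8% to 46.8% in tall peaks. Median GC fell over the same classes, from 70% to 65.3%, and the part of base composition in the climb was not tested. SP/KLF letters were in 74.8% of tall peaks, 39.9% of others and 61.6% of all coding TSSs, but near the TSS the share was 77.8% against 75.7%. ETS letters, in 19.5% against 8.05%, also came close near the TSS, with 24% against 22.2%. CRE letters were in 6.90% of tall and 2.54% of other promoter peaks, NRF1 in 6.42% and 3.12%, YY1 in 6.90% and 4.04%, the E-box in 10.2% and 6.64%, and ZNF143 in 5.93% and 2.77%. Near the TSS most of these shares were close too, with 7.0% against 6.17% for CRE, 7.41% against 6.93% for NRF1, 9.19% against 9.15% for YY1 and 10.2% against 9.74% for the E-box. ZNF143 letters were in 6.04% against 3.61% there. Less frequent in tall peaks were TATA letters, with 2.73% against 7.28%, and AP-1 letters, with 1.60% against 3.39%. Near the TSS these were 2.06% against 3.54% and 1.10% against 1.88%. Over all coding TSSs these shares were 4.12% for CRE, 4.44% for NRF1, 6.75% for YY1, 7.55% for the E-box, 2.59% for ZNF143, 13.5% for ETS, 8.23% for TATA and 3.13% for AP-1. A match describes letters only. Peaks with and without a motif had like ratios: the median log2 ratio with a motif lay between -0.69 (AP-1, 20 peaks) and -0.57 (TATA, 34 peaks).

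Tall peaks were spread unevenly over chromosomes. On chromosomes 16, 17, 19 and 22, grouped after their values were seen, 69 of 5378 promoter peaks were tall (1.28%, 1.02 to 1.62), against 1178 of 19817 (5.94%, 5.62 to 6.28) on the other 18. The intervals do not allow for that choice of chromosomes. Chromosome 22 had 2 of 655 (0.305%). Chromosome 20, counted among the other 18, had 12 (1.58%), while chromosome 4 had 96 of 941 (10.2%), chromosome 5 had 8.93% and chromosome 13 had 8.55%. The shares on these 4 chromosomes and on the other 18 were also read by class of GC. For summit windows of 60 to 65% GC the shares were 1.77% and 11.0%, for 65 to 70% they were 1.66% and 12%, and for 70 to 75% they were 1.02% and 10.5%. They were 0.664% (5 peaks) and 2.54% at 50 to 55%, 1.71% and 5.90% at 55 to 60%, and 0.769% (3 peaks) and 4.06% at 75 to 100%. At 40 to 50% GC the shares were 0.527% (3 of 569 peaks) and 0.547% (22 of 4021), with too few tall peaks to compare. Under 40% no promoter peak was tall. The pattern was also in the MAK683 library, where the same number of tallest promoter peaks took 1.43% of the promoter peaks on these 4 chromosomes and 5.26% on the other 18. Copy number and mappability were not measured, and their part and that of base composition were not tested. The median log2 ratio of the tall peaks was -0.65 on these chromosomes and -0.60 on the rest.

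**Figure D5:**
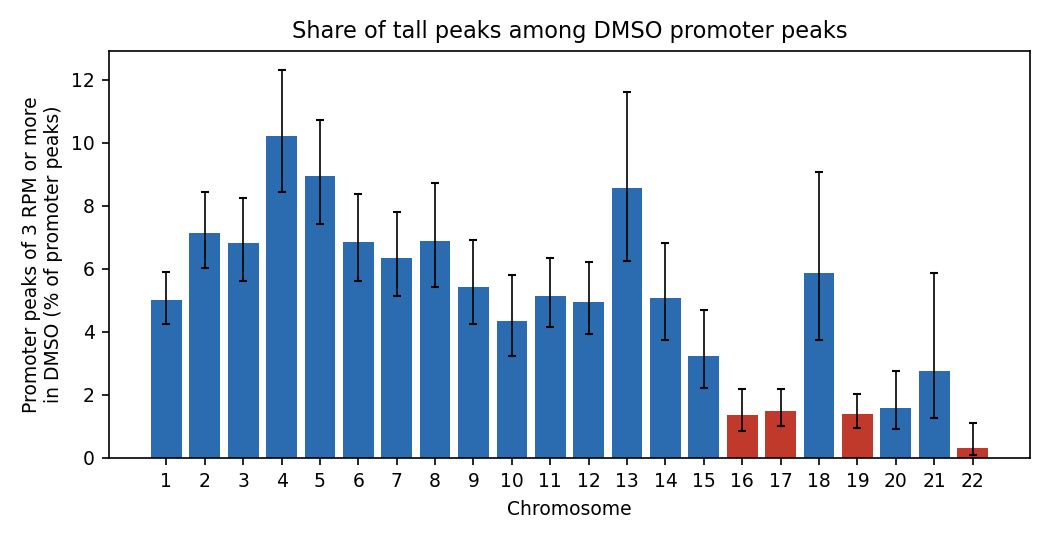
Share of DMSO promoter peaks that reached 3 RPM (vertical, percent) on each chromosome (horizontal), with 95% Wilson intervals. Red bars are chromosomes 16, 17, 19 and 22. These are low, with 1.28% together, while chromosome 4 has the highest bar at 10.2%.

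The share of genes with a tall promoter peak is given for each list beside that of all coding genes, with no test. A gene counts if its TSS lies within 3 kb of such a peak, even where the summit is nearer to another gene. The share of all coding genes was counted in the same way. Of the 19222 coding symbols, 14222 had any DMSO promoter peak, so the 8.21% counts many genes that had none. Of 84 chaperone genes, 24 (28.6%) lay within 3 kb of a tall promoter peak, against 8.21% of all coding genes. They included HSPA8, the constitutive cytosolic HSP70, with 64 tags in DMSO and 44 in MAK683, HSPH1, its nucleotide exchange factor, with 61 and 40, HSPA5, the HSP70 of the endoplasmic reticulum, with 58 and 40, and the shared promoter of HSPD1 and HSPE1, the mitochondrial chaperonin pair, with 56 and 49. The 21 chaperone peaks had a median log2 ratio of -0.57, with 0 at least 2-fold lower. Of 64 replication-dependent histone genes, 18 (28.1%) shared 9 tall peaks, with DMSO heights of 51 to 59 tags, MAK683 heights of 33 to 46 and a median log2 ratio of -0.72. H2BC12, divergent with H2AC12, held 59 and 35 tags (-0.89, -1.49 to -0.29), and H2BC18, which has near-identical copies, held 55 and 34.

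Splicing genes gave 16 of 70 (22.9%), with MAK683 heights of 23 to 54 tags and a median of -0.69. SF3B5, printed above, held 67 tags in DMSO and 41 in MAK683 (-0.85, -1.41 to -0.29), and HNRNPF, an RNA-binding protein, held 66 and 45. HNRNPA3, SRSF1 and PRPF38B were at least 2-fold lower, and the SRSF1 peak was nearest to another coding gene. Genes of DNA replication and mitosis gave 23 of 117 (19.7%), with a median of -0.70. ORC2, of the origin recognition complex, held 72 and 42 tags (-0.92, -1.46 to -0.37), and PCNA, the sliding clamp, held 53 and 45. SMC2, of condensin, held 51 and 50. The phosphatase gene CDC14A, with 67 and 46, and CDC73, a transcription elongation factor of the Paf1 complex with 50 and 53, came in by their symbols.

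Genes of protein synthesis gave 11 of 75 cytosolic ribosomal protein genes (14.7%), 9 of 78 mitochondrial ones (11.5%) and 10 of 68 of the translation factor list (14.7%), against 8.21% of all coding genes. Their median log2 ratios were -0.63, -0.63 and -0.72. Most of the cytosolic ribosomal genes counted had a peak nearest to another coding gene, namely RPL15, RPL41, RPS27A, RPL8, RPL35, RPS25 and RPL27A. Among cytosolic ribosomal genes, RPL24 held 55 tags in DMSO and 26 in MAK683 (-1.22, -1.89 to -0.55), while RPS27A, whose peak is nearest to CLHC1, held 58 and 57. MRPL18, divergent with the chaperonin gene TCP1, held 64 and 41, and MRPS28 held 62 in both libraries (-0.14, -0.65 to 0.37). EEF1A1, the elongation factor that brings aminoacyl-tRNA to the ribosome, held 67 and 46. EIF2AK3, matched by its symbol but encoding the stress kinase PERK, held 72 and 40 (-0.99, -1.54 to -0.43). Of the 95 oxidative phosphorylation genes 11 (11.6%) had a tall peak, with a median of -0.45. NDUFS1, of complex I, shares its promoter with the translation factor gene EEF1B2 and held 63 and 31 tags (-1.16, -1.78 to -0.54), while COX18 held 60 and 50. Of 47 proteasome genes, 5 (10.6%) had a tall peak, among them PSMC5, an ATPase of the regulatory particle, with 51 and 36. The peaks counted for PSME2, PSMB10 and PSMB1 were nearest to other coding genes. Some DMSO promoter peak was present at 88 oxidative phosphorylation and 45 proteasome genes, so the same limit holds for both lists.

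Lists of regulatory and tissue-restricted genes varied. EGR1, DUSP6, MYC, ATF3 and ZFP36, which respond to growth signals and stress, were 5 of 29 (17.2%). The ZFP36 peak was nearest to PLEKHG2. EGR1 held 66 tags in DMSO and 51 in MAK683 (-0.51, -1.04 to 0.02), DUSP6 held 59 and 50, and MYC held 52 and 40. Zinc finger genes gave 21 of 532 (3.95%), below the 8.21% of all coding genes, and 415 of the 532 had any DMSO promoter peak. Tall peaks were rare on some chromosomes, with 1.40% of promoter peaks on chromosome 19. The part of chromosome location in the low share of this list was not tested. ZNF672 held 73 and 56 and ZNF248 held 71 and 46. Of 31 PRC1 and PRC2 genes, 2 (6.45%) had a tall peak, near the share of all coding genes. They were JARID2, an accessory subunit of PRC2, with 50 and 37 tags (-0.57, -1.19 to 0.04), and PCGF2, a PRC1 subunit whose peak is nearest to the proteasome gene PSMB3, with 51 and 27 (-1.06, -1.73 to -0.38). Of 28 SWI/SNF genes, 1 (3.57%) had a tall peak, ACTL6A with 54 and 41, and counts this small do not set the list apart. No HOX gene of 39, no olfactory receptor gene of 414 and none of 29 genes that the study names as derepressed or as PRC2 targets had a tall promoter peak in DMSO (0 in each list). Any DMSO promoter peak was present at 37 HOX genes, 11 olfactory receptor genes and 21 of the 29 named genes. Lists of 29 and 39 genes are short. Whether a count of 0 sets them apart from the 8.21% of all coding genes was not tested. The study chose many of the 29 genes with data from this line, so that list is not independent of these libraries. Genes of a list can share a peak, and lists were not tested against each other.

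Some tall peaks lie in duplicated sequence. For 24 of the 1247 (1.92%) the 300 bp around the summit had another genomic match of at least 95% identity over at least 250 bp, so their tags are uncertain. They include FAM72D, FAM72A and FAM72B, SLX1A and SLX1B, NOTCH2NLA, NBPF15, FAM86B1 and FAM86B2, and the histone genes H2BC18, H2AC19 and H3C14. Their median log2 ratio was -0.53, against -0.60 for the other 1223.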

How the data were processed

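ATAC-seq peak tables of 1 DMSO and 1 MAK683 library of G401 cells were used. The methods name Bowtie2 and hg19 for the alignment. Narrow peaks were called by the authors on each library separately with MACS 2.1.1.20160309, the version in the file headers, with no control, no local background, tags shifted by -100 bp and extended to 200 bp, 1 tag kept per position and a q-value cutoff of 0.05. Paired reads were treated as single tags. No regional difference in coverage was therefore corrected. Tags after filtering numbered 16598348 of 23901891 (DMSO) and 18265284 of 26692938 (MAK683). The deposited height is a pileup signal, in whole tags and without depth scaling. Fold enrichment, a deposited ratio of pileup to genome-wide background, served only as an alternative scale. The −log10 columns deposited by the authors (p-value and q-value) were not used.

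Heights were divided by the tags after filtering to give tags per 1000000 (RPM). Peaks were matched by at least 1 bp of overlap, taking the tallest MAK683 peak. Each gene of GENCODE 44 lifted to GRCh37 had 1 TSS, that of its canonical transcript where marked, and peaks took the name of the coding gene nearest to the summit. Log2 ratios have 95% intervals from the Poisson error of both tag numbers, taken as normal on that scale. Shares have Wilson intervals and medians order-statistic intervals. Sequence was read from GRCh37, and near copies were found with BLAST+. Matching was tested on simulated data, in which all 4500 peaks with a partner out of 5000 were matched. Each simulated peak had only its own slightly shifted copy as a possible partner, so the choice among several overlapping peaks was not tested. Named peaks were the 12 tallest, those next to the limit, the 6 lowest and 6 highest ratios, the 5 tallest in MAK683, the 3 widest and narrowest, and, in each gene list, the 2 tallest among peaks whose nearest gene is in the list. Other list genes were named after their values were seen. One peak with a low ratio is not reported here. The peaks, lists and motifs were chosen with earlier results of these data known. Peaks on other sequences than chromosomes 1 to 22 were not analysed here, except chromosome X in an alternative. Alternatives changed the limit, window, TSS set, scale, overlap and choosing library. Python 3.11.15, numpy 2.4.6, pandas 2.3.3 and scipy 1.17.1 were used.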

Additional observations from a re-analysis of the deposited data

How the results depend on the processing

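No alternative turned the sign of the median log2 ratio: all 14 were negative. Of 57 alternative values, 32 moved little, 25 moved more and 0 reversed. A limit of 2.5 RPM gave 2974 peaks, a median of -0.58, 187 peaks at least 2-fold lower and 378 still at that limit in MAK683. A limit of 4 RPM gave 61 peaks, a median of -0.66, 100.0% lower, 3 at least 2-fold lower, 2 still at the limit and 49.2% with the summit within 150 bp of a TSS. At the limit of 3 RPM that share was 58.5%, and it became 67.5% when every basic transcript gave a TSS. Without depth scaling the median was -0.46, with 97.8% lower and 30 at least 2-fold lower. With fold enrichment it was -0.53, with 38 at least 2-fold lower. Choosing the same number of peaks on MAK683 height gave -0.35, 88.9% and 0, and choosing on the mean of both heights gave -0.49, 98.2% and 18. Relative to the median of all shared DMSO peaks (-0.29), it was -0.31, with 91.5% lower and 8 at least 2-fold lower. The cause of these shifts was not tested, except that the limits and the choosing library change which peaks enter. The window, chromosome X and the overlap rules changed no result by more than its error or 1.5 times, although 1184 peaks had a partner with 50% overlap and 919 one with summits at most 150 bp apart. Leaving out near copies and the MTRNR2L1 peak, an alternative chosen after seeing the data, left 1222 peaks and a median of -0.60. No paired analysis was possible because each group has 1 library and the results come from no test. For the same reason no replicate could be left out, and differences between cultures cannot be told apart from the treatment. The depth limits single peaks: the counting error of their log2 ratio had an SD of 0.301.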
